A study of Mus musculus with 7 samples.

Results

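Plasma Ago2-bound miRNAs 24 h after status epilepticus (SE) were compared with those of control mice at the same hour. The comparison was 1 SE 24 h library against 1 control 24 h library, each made from a pool of plasma from 10 mice. A mature miRNA was a member where either library held 50 CPM or more of it. CPM stands for counts scaled to the library's total, in the usual unit. They numbered 144 of the 640 miRNAs counted in the series. Of these, 111 reached 50 CPM in both libraries, 10 in SE 24 h only and 23 in control 24 h only.

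The mice were of strain c57, given in the study's methods as adult male C57BL/6JOlaHsd. SE mice received kainic acid (KA) into the amygdala, with midazolam or lorazepam later to limit mortality, and control mice received PBS. Ago2 was immunoprecipitated from plasma, and the RNA bound to it was sequenced. Control pools of 4 h and 8 h were used to see which SE levels lay outside every control. They are other hours and not replicates of control 24 h. A pool averages its mice, and with 1 library a side no difference has a replicate check.

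Ago2 is the protein that holds a mature miRNA and carries it to messenger RNAs. Pairing runs mostly through the seed, the bases near the 5′ end of the miRNA, so miRNAs that share a seed form a family with overlapping targets. Many miRNAs are cut from shared transcripts and are known as clusters. In plasma, Ago2 protects miRNAs from degradation, and many such miRNAs are known to come from blood cells and vessel walls. Some families have well studied roles in brain or immune cells. miR-146a restrains inflammatory signalling, let-7 miRNAs are abundant in mature neurons, and the Dlk1-Dio3 cluster is an imprinted group expressed strongly in brain.

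The mature sequences of the miRNAs that the results turn on are shown from RefSeq for mouse build GRCm38.p6, 5′ to 3′, with the seed (bases 2 to 8) in capitals. Of the 144 members, 123 had a sequence there. The let-7 set is shown because 3 of its members were lower in SE 24 h on both totals used below, namely let-7c-5p, let-7d-5p and let-7g-5p, and 2 close relatives were not.
let-7c-5p: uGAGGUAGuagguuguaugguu
let-7d-5p: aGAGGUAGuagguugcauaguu
let-7g-5p: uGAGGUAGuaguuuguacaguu
let-7f-5p: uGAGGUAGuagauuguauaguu
let-7i-5p: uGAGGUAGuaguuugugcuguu
The miR-146 pair is shown because both members were lower.
miR-146a-5p: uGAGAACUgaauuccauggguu
miR-146b-5p: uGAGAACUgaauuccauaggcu
The next 3 sets share a seed within the set and yet differed in direction.
miR-103-3p: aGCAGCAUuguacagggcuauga
miR-107-3p: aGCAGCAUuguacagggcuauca
miR-30e-3p: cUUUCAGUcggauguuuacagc
miR-30a-3p: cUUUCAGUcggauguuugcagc
miR-17-5p: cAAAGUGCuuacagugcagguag
miR-93-5p: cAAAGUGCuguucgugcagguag
miR-106b-5p: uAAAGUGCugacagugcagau
The Dlk1-Dio3 members reaching 50 CPM are shown because all 3 were higher in SE 24 h than in control 24 h.
miR-127-3p: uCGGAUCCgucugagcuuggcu
miR-434-3p: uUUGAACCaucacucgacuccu
miR-341-3p: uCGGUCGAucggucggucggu
The last set holds late miRBase entries that were lower.
miR-6240: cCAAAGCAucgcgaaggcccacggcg
miR-6236: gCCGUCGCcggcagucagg
miR-5119: cAUCUCAUccuggggcugg
Positions are counted from 1 at the 5′ end. miR-103-3p and miR-107-3p differ by G22C, miR-30a-3p and miR-30e-3p by G18A, and miR-146b-5p and miR-146a-5p by A18G and C21U. let-7c-5p differs from let-7a-5p by G19A. Reads were aligned with up to 2 mismatches, so counts of these near-identical miRNAs may be shared and their separate levels are uncertain.

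The loci are given on the same build. miR-127-3p is at chr12:109592888-109592909 and miR-434-3p at chr12:109594565-109594586, both on the plus strand with no host gene on that strand in the annotation. miR-341-3p, on the plus strand at chr12:109611556-109611576, is in an intron of Rian. miR-146a-5p is at chr11:43374435-43374456 on the minus strand with no host gene there, and miR-146b-5p at chr19:46342790-46342811 on the plus strand, within an Mfsd13a intron. miR-107-3p is at chr19:34820700-34820722 on the minus strand in a Pank1 intron. miR-106b-5p (chr5:138165787-138165807) and miR-93-5p (chr5:138165574-138165596) are both within Mcm7 on the minus strand.

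The libraries differed in depth and in the weight of 1 miRNA. Total counts were 2043220, 3529563 and 3412752 in control 4 h, 8 h and 24 h and 3718313 in SE 24 h. miR-486b-5p, a miRNA abundant in red blood cells, held 76.1% of counts in SE 24 h (95% Wilson interval 76.0 to 76.1), against 67.0% in control 24 h. Control 4 h was like SE 24 h at 76.1%, and control 8 h was like control 24 h at 67.5%. Leaving miR-486b-5p out of the totals moved every log2 difference between SE 24 h and control 24 h upwards by 0.46. The median difference over members was -0.64 with all counts, -0.17 without miR-486b-5p and -0.02 under TMM scaling. A miRNA was therefore called higher or lower only where it differed by at least 1.5-fold on both totals, and was called outside controls only where it lay above or below control 4 h, 8 h and 24 h on both totals. Intervals cover counting error only. The Wilson interval takes each count as independent, so it is too narrow where 1 molecule gave many counts, as read below.

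Low counts gathered around 45.2 in SE 24 h and 55.1 in control 24 h, which was read as the number of counts that 1 captured molecule gave. On that reading, 50 CPM stands for 4.11 molecules in SE 24 h and 3.10 in its control, but for 0.999 in the 4 h control. Levels near the threshold therefore rest on a few molecules, and control 4 h is the least precise of the 4 libraries. A stricter reading of each call used the 95% interval of the ratio on estimated molecules, here named the molecule interval.

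Of the 144 members, 13 were higher in SE 24 h (9.03%) and 40 were lower (27.8%). Those above all 3 controls numbered 14 (9.72%) and those below all 3 numbered 40 (27.8%). Only 7 were both higher than control 24 h and above all controls (4.86%), and 24 were both lower and below all controls (16.7%). The 40 below all controls and these 24 include miR-330-5p, which had 0 counts in both SE 24 h and control 4 h. It lay below control 4 h only through the floor of 3 counts. The molecule interval left out 1 for 2 of the higher miRNAs (1.39%), miR-434-3p and miR-107-3p, and both lay within the range of the controls. It left out 1 for 20 of the lower miRNAs (13.9%), of which 13 were below all 3 controls (9.03%). This count rests on the counts read as 1 molecule, and was 10 with that value 2 times as high and 27 with it 0.5 times as high. Under 10 estimated molecules stood behind 12 of the 13 higher calls and 23 of the 40 lower calls in at least 1 library. A further 68 members were neither called nor outside controls.

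**Figure D1:**
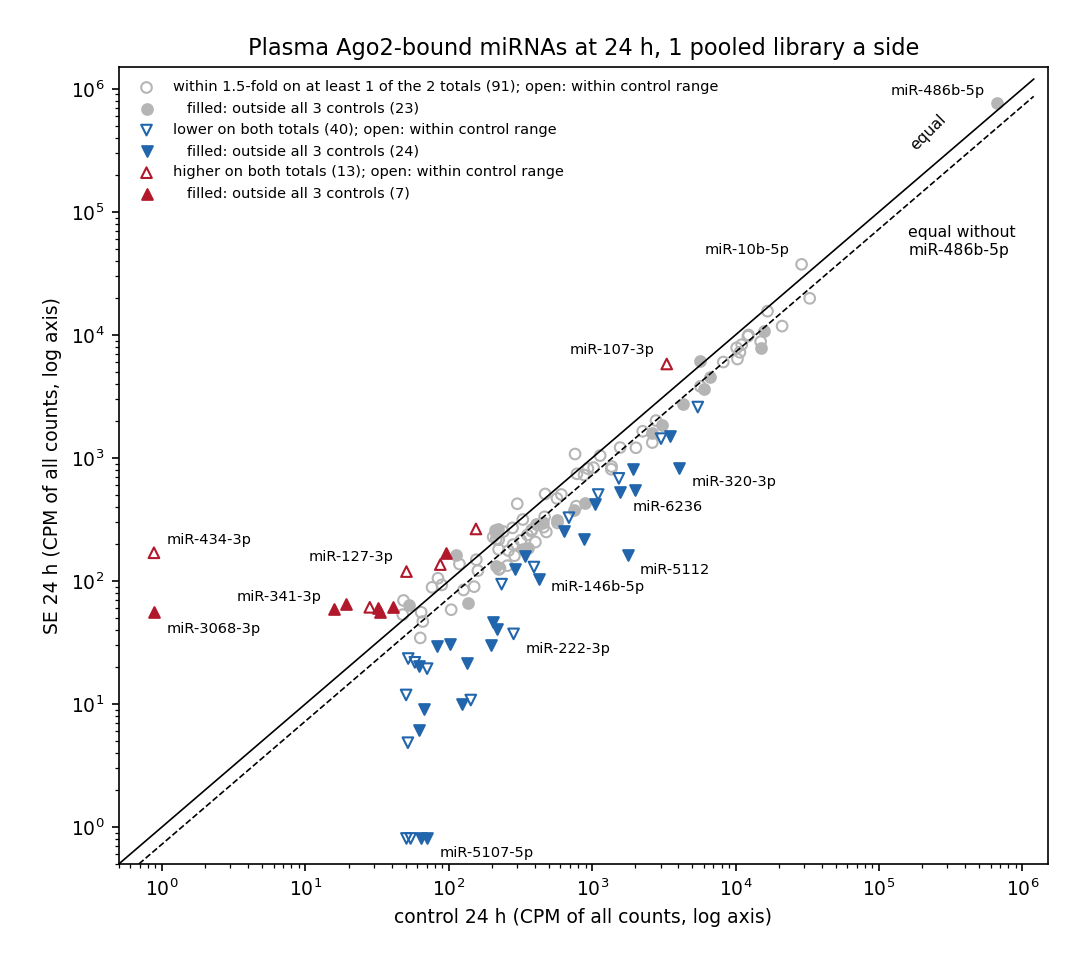
Level of each of the 144 members in SE 24 h (vertical, CPM of all counts) against control 24 h (horizontal), both axes logarithmic, with counts of 3 or fewer drawn at 3. Upward triangles mark the 13 higher and downward triangles the 40 lower miRNAs, filled where outside all 3 controls. The solid line marks equal CPM of all counts and the dashed line equal CPM without miR-486b-5p, and most points other than miR-486b-5p lie below the solid line, as the median of -0.64 states.

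Pairs of control libraries gave larger shares of miRNAs past 1.5-fold than SE 24 h and its control. Control 8 h against control 24 h gave 31 higher and 31 lower of 152 miRNAs tested (40.8%), and control 4 h against control 24 h gave 46 higher and 52 lower of 171 (57.3%). Control 4 h against control 8 h gave 41 higher and 32 lower of 167 (43.7%). SE 24 h against its own control gave 36.8%. The pair was uneven in direction on these totals, with 40 lower and 13 higher. The rule itself treats the directions unequally in this pair, because the 2 log2 scales differ by a constant 0.46. All counts decided every higher call, and the total without miR-486b-5p decided every lower call. The split depended on the scaling, with 75 lower and 13 higher on all counts alone, 40 lower and 28 higher without miR-486b-5p alone, 32 lower and 33 higher under TMM, and 30 lower and 38 higher under DESeq2 size factors. Against control 8 h the split was 8 higher and 38 lower of 143, and against control 4 h it was 36 higher and 72 lower of 164. These 3 comparisons share the SE 24 h library. Hour of collection and pool cannot be told apart among the controls.

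**Figure D2:**
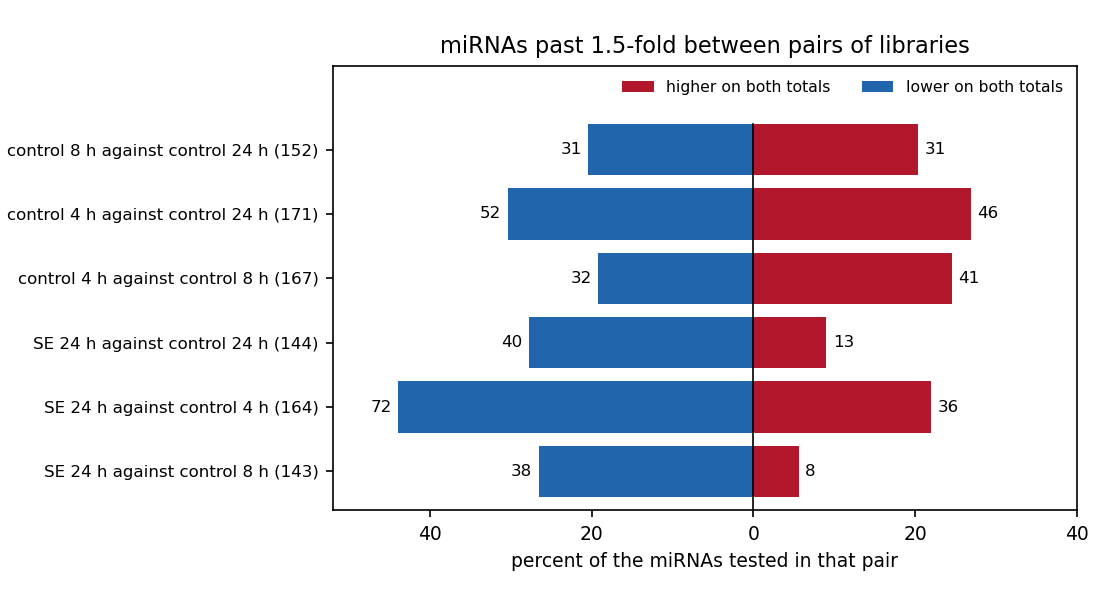
Percent of the miRNAs tested that were at least 1.5-fold higher (right) or lower (left) on both totals, for 6 pairs of libraries, with the number tested in brackets and the number called beside each bar. The pairs of controls have calls on both sides, for example 31 and 31 for 8 h against 24 h, and the SE 24 h pairs have more calls on the lower side on these totals.

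The 5 miRNAs with the most counts in SE 24 h were not called. miR-10b-5p, encoded within a Hox gene cluster, was at 43291, 42870.0 and 28873 CPM in control 4 h, 8 h and 24 h and 37453 in SE 24 h, inside the control range. let-7f-5p was at 16228, 29864, 32895 and 19822 CPM in the same order. miR-192-5p, a miRNA of gut and liver, was at 16700.0 CPM in control 24 h against 15589 in SE 24 h, and miR-191-5p at 21118 against 11787. The SE levels of these 4 stood within the controls on all counts, and that of miR-192-5p was above all 3 without miR-486b-5p. miR-486b-5p itself was at 760850 CPM of all counts in SE 24 h and 760600 in control 4 h, so its place above all controls rests on 1.0003-fold.

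The immune-related pair of miR-146 was lower in SE 24 h than in every control. miR-146a-5p was at 812, 916 and 1049 CPM in control 4 h, 8 h and 24 h and 422 in SE 24 h. Its log2 difference from control 24 h was -1.31 with all counts and -0.85 without miR-486b-5p. miR-146b-5p was at 317, 439 and 423 CPM in the controls and 105 in SE 24 h, a log2 difference of -2.02. The control levels of both lay close together. On all counts the SE level was 1.93-fold below the nearest control for miR-146a-5p and 3.03-fold below it for miR-146b-5p. Without miR-486b-5p these were 1.60-fold and 2.93-fold. Both molecule intervals left out 1, and both covered it with the counts per molecule 2 times as high. At 4 h neither member was called, and at 8 h only miR-146b-5p was, with a log2 difference of -0.75.

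The let-7 family and miR-98, which share the seed GAGGUAG among their 5p arms, had 10 members tested. None was higher, 3 were lower and 6 were below all controls, where the share over all 144 members was 27.8% for each of the latter counts. The family median was -0.73 beside -0.64 over all members. let-7c-5p was at 1953, 2881 and 3479 CPM in control 4 h, 8 h and 24 h and 1500.1 in SE 24 h. let-7d-5p was at 433, 358, 633 and 255 CPM in the same order. let-7g-5p was at 1018, 1509, 1921 and 811 CPM. These 3 were below every control, by 1.25-fold to 1.40-fold from the nearest one on all counts, and their log2 differences from control 24 h were between -1.31 and -1.21. Without miR-486b-5p the distance from the nearest control was 1.30-fold for let-7c-5p, 1.25-fold for let-7g-5p and only 1.03-fold for let-7d-5p. The members that were not called included let-7i-5p, at 11037 CPM in control 24 h and 8319 in SE 24 h, with a log2 difference of -0.41. The family's median thus lay near that of all members. let-7a-5p, which differs from let-7c-5p by 1 base, was below all controls and was not called.

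The counts of other families are to be read beside the shares over all members, 9.03% higher, 27.8% lower, 9.72% above and 27.8% below all controls. miR-30 had 8 members tested, with 1 higher and 2 lower, near those shares. The 7 miR-181 members, a family abundant in lymphocytes and brain, had 1 lower and none outside controls, and a median of -0.27. The 4 members of the miR-15 and miR-16 family, known for restraining the cell cycle, had 2 lower and a median of -1.41. Of the miR-221 and miR-222 pair, found in vessel walls and platelets, miR-222-3p was lower. It was at 0, 105 and 283 CPM in control 4 h, 8 h and 24 h and 37.1 in SE 24 h, so the SE level lay within the controls. The miR-17-92 cluster had 4 tested, with 1 lower and 2 below all controls, and the miR-106b-25 cluster had 4 tested, with 1 higher, 1 lower and 2 above all controls. Nothing particular to lists this small can be read from such counts.

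**Figure D3:**
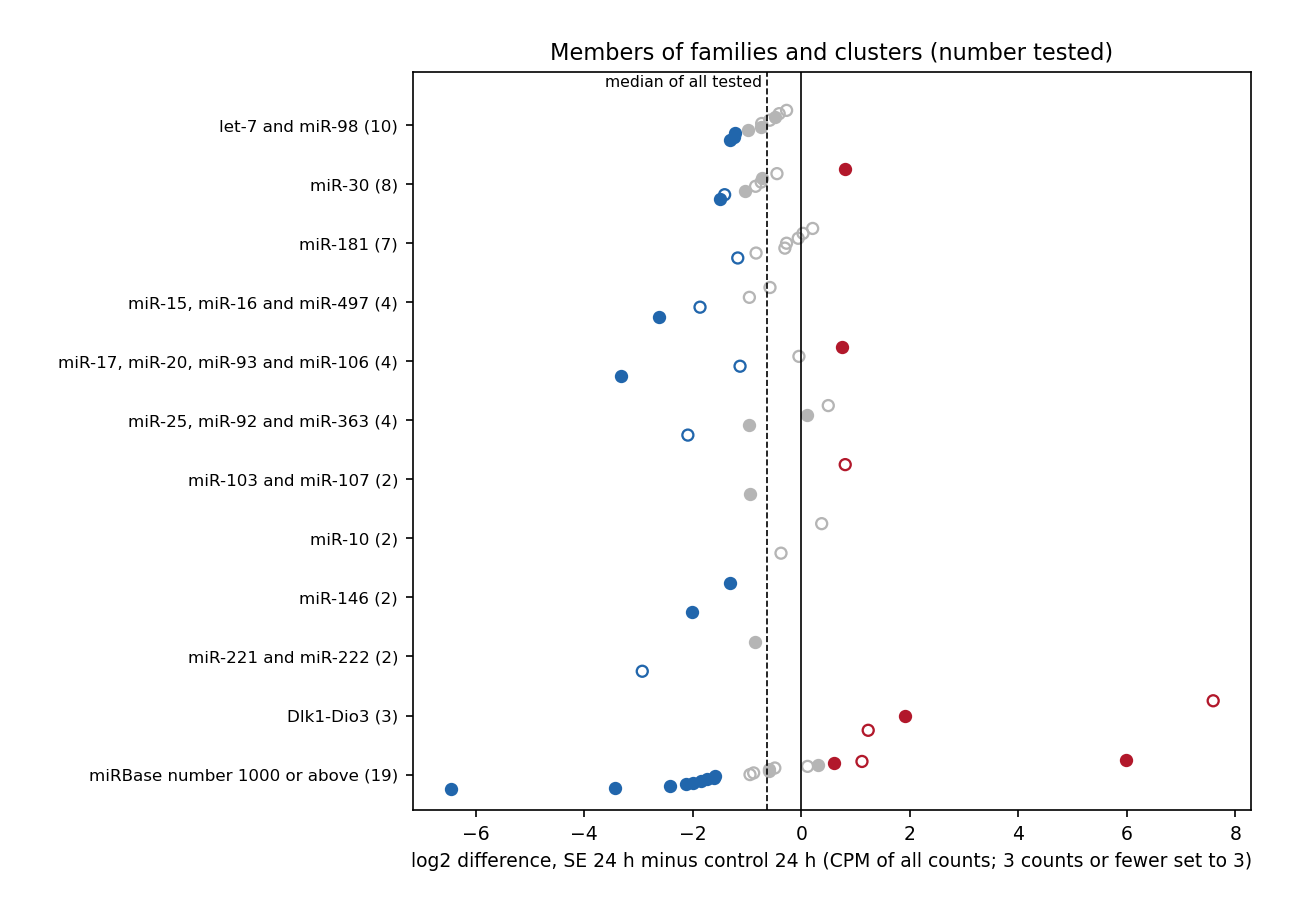
Log2 difference of each member of 12 lists, SE 24 h minus control 24 h on CPM of all counts, with 1 point for each miRNA and the number tested in brackets. Red points were higher and blue points lower on both totals, grey points were neither, filled points lay outside all 3 controls, and the dashed line is the median of all members (-0.64), around which most let-7 and miR-30 points fall.

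Members with 1 seed did not always share a direction. miR-107-3p was at 7019.8, 7447 and 3311 CPM in control 4 h, 8 h and 24 h and 5802 in SE 24 h. Its SE level was above control 24 h on both totals, and below the other controls on all counts only. miR-103-3p was at 243, 282 and 356 CPM in the controls and 184 in SE 24 h, below every control. The log2 differences from control 24 h were 0.81 and -0.95 for miRNAs that differ at a single base, and the share of reads that alignment assigned to each was not tested. miR-30a-3p was at 50.9, 118 and 96.1 CPM in the controls and 169 in SE 24 h, above all of them. Its relative miR-30e-3p was at 106, 95.5, 135 and 65.9 CPM, below all controls though not called. In the third set, miR-106b-5p was at 0, 13.0 and 33.4 CPM in the controls and 55.9 in SE 24 h, and miR-17-5p at 50.9, 13.6 and 61.8 CPM in the controls and 6.19 in SE 24 h. Both stood outside the controls, on opposite sides, on fewer than 10 estimated molecules each. Of the 24 h libraries, miR-106b-5p reached 50 CPM in SE 24 h only and miR-17-5p in control 24 h only. The filter thus favoured these opposite directions. miR-93-5p of that seed was lower, at 1102 CPM in control 24 h and 504 in SE 24 h.

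The Dlk1-Dio3 cluster had 41 miRNAs with a count in the series, of which 3 were tested, and all 3 were higher than in control 24 h, beside 13 of all 144 members (9.03%). miR-434-3p and miR-341-3p reached 50 CPM in SE 24 h only, so the filter itself favoured a higher call for them. Cluster miRNAs below the filter went both ways, with more of them higher than lower in SE 24 h. From control 24 h to SE 24 h, miR-410-3p went from 15.2 to 36.6 CPM and miR-409-3p from 14.7 to 33.1. miR-300-3p went from 0.293 to 29.9 CPM. In the other direction, miR-381-3p went from 36.0 to 13.7 CPM, miR-434-5p from 25.2 to 0 and miR-136-5p from 14.1 to 0. These levels stand for a few estimated molecules at most. No rise of the cluster as a whole can be read from the tested members. miR-127-3p was at 546, 167 and 50.7 CPM in control 4 h, 8 h and 24 h and 119 in SE 24 h. miR-434-3p was at 342, 126 and 0.293 CPM in the controls and 169 in SE 24 h. Both SE levels lay within the control range, since control 4 h held more. For miR-434-3p the counts were 1 in control 24 h and 630 in SE 24 h, a ratio of 578 with an exact 95% interval of 103 to 22870.0 on reads. On estimated molecules the interval began at 2.46 and had no upper bound. miR-341-3p was at 0, 32.3, 15.8 and 59.2 CPM in control 4 h, 8 h, 24 h and SE 24 h, and was the 1 member of the 3 above all controls, by 1.83-fold from the nearest. Summed over the cluster, counts were 3862, 3098 and 905 in control 4 h, 8 h and 24 h and 2374 in SE 24 h. The low library of the 4 was control 24 h. Cluster members with a count numbered 12, 18 and 12 in the controls and 17 in SE 24 h.

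The other higher miRNAs were mostly near the threshold. miR-133b-3p, a muscle miRNA, was at 48.5, 20.4 and 19.3 CPM in the controls and 65.4 in SE 24 h, above all of them. miR-133a-3p was at 758, 969 and 87.3 CPM in the controls and 136 in SE 24 h, far below the control levels of 4 h and 8 h. The SE library was thus high in this pair only by comparison with control 24 h for miR-133a-3p. miR-3068-3p was at 47.0, 14.5 and 0 CPM in the controls and 55.4 in SE 24 h, at least 63.0-fold higher than control 24 h against a floor of 3 counts in that library, and 1.18-fold above control 4 h. miR-298-5p was at 28.9, 36.5 and 31.9 CPM in the controls and 60.5 in SE 24 h. Its controls lay close together, and SE 24 h was 1.66-fold above the nearest. miR-3057-5p was 1.11-fold above the nearest control. miR-676-3p was at 393, 318, 155 and 265 CPM and miR-5126 at 241, 151, 28.1 and 61.0, both within the controls. In each of these 2 the low library was again control 24 h. miR-298-5p, miR-3057-5p and miR-5126, like miR-877-5p and miR-205-5p, are named after their values were seen.

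**Figure D4:**
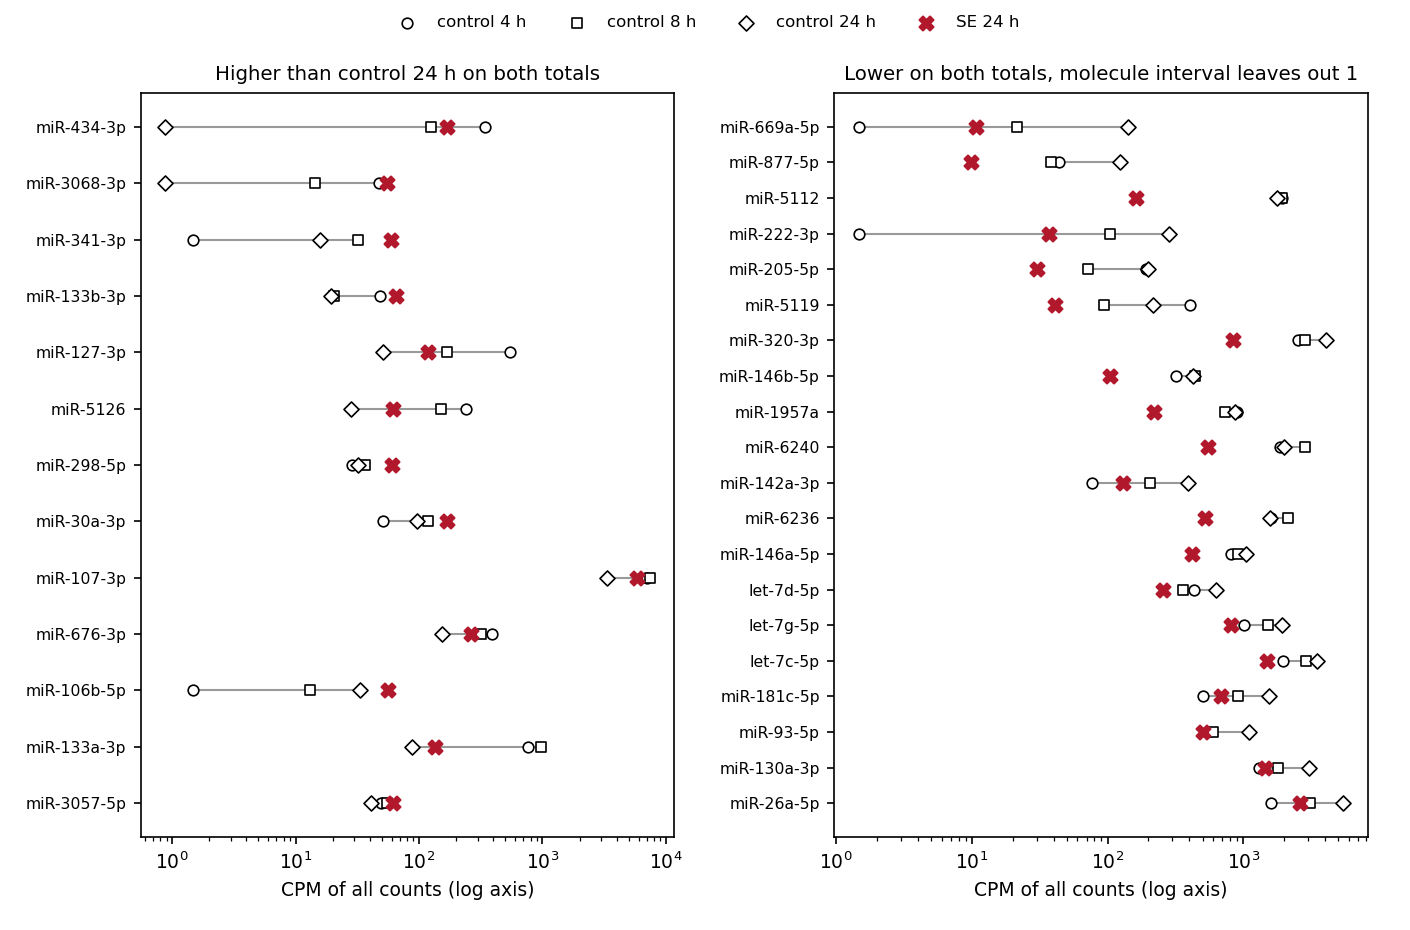
Levels in 4 libraries (CPM of all counts, log axis, counts of 3 or fewer drawn at 3) of the 13 miRNAs higher in SE 24 h (left) and of the 20 lower ones whose molecule interval left out 1 (right). Open symbols are control 4 h, 8 h and 24 h, crosses are SE 24 h, and on the right the crosses of miR-5112, miR-320-3p, miR-146b-5p, miR-1957a, miR-6240 and miR-6236 stand clear to the left of all open symbols.

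The lower miRNAs that stood farthest from the controls were mostly late miRBase entries. miR-5112 was at 1916, 1929 and 1765 CPM in control 4 h, 8 h and 24 h and 163 in SE 24 h. On all counts the 3 controls differed little and the SE level was 10.9-fold below the nearest, against 7.86-fold without miR-486b-5p. The log2 difference from control 24 h was -3.44 on all counts and -2.97 without miR-486b-5p. miR-1957a was at 899, 731, 873 and 220.0 CPM in the same order. miR-6240 was at 1849, 2818, 1975 and 545 CPM. miR-6236 was at 1602, 2122, 1573 and 524 CPM. In these 3 also the controls lay within a narrow range above the SE level. That level was 3.0-fold to 3.39-fold below the nearest control on all counts, and 2.18-fold to 2.62-fold without miR-486b-5p. miR-5119 was at 408, 94.1, 218 and 40.9 CPM, with controls more widely spread. Their roles in plasma are not stated here, since they are little studied.

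Members numbered 1000 or above in miRBase were grouped after these values were seen. Of 19 tested, 3 were higher, 9 were lower and 10 were below all controls, with a median of -0.95. Of the 125 with lower numbers, 10 were higher, 31 were lower and 30 were below all controls, with a median of -0.58. The 244 such miRNAs counted in the series, members or not, together held shares of counts without miR-486b-5p of 4.28%, 3.66% and 3.0% in control 4 h, 8 h and 24 h and 1.64% in SE 24 h. miR-6240 and miR-6236 are rich in G and C, at 69.2% and 79.0% of bases. Over the members with a sequence, the median GC content was 47.8% for 31 lower, 50% for 12 higher and 45.5% for 80 uncalled miRNAs, and their ranges overlapped.

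miR-320-3p is made without the usual Drosha step. It was the most abundant of the lower miRNAs that lay at least 3-fold below every control on all counts. It was at 2531, 2819 and 4054 CPM in the controls and 834 in SE 24 h, and its log2 difference was -2.28. The SE level was 3.04-fold below the nearest control on all counts and 2.49-fold without miR-486b-5p. miR-205-5p, an epithelial miRNA, was at 193, 72.0, 197 and 30.4 CPM, and miR-877-5p, which is spliced from an intron, at 44.0, 38.2, 124 and 9.95 CPM. Both were below all controls, on 2.50 and 0.82 estimated molecules in SE 24 h. miR-142a-3p, a miRNA of blood cells, was at 77.3, 205, 393 and 130 CPM, and miR-24-3p at 99.4, 98.0, 234 and 94.1 CPM. For miR-142a-3p the SE level was inside the controls, and for miR-24-3p it was below them on all counts only.

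A group of 4 members was at 0 counts in SE 24 h. Against a floor of 3 counts in that library, miR-5107-5p was at least 87.9-fold lower than control 24 h, miR-330-5p at least 78.8-fold, miR-335-5p at least 67.2-fold and miR-193b-3p at least 62.8-fold. Their control 24 h levels were 70.9, 63.6, 54.2 and 50.7 CPM, which stand for 3.14 to 4.39 estimated molecules. miR-335-5p and miR-193b-3p were also at 0 in control 4 h and control 8 h, and the molecule interval of all 4 covered 1 on at least 1 total. miR-330-5p was at 0 in control 4 h as well, so it lay below that control only through the floor of 3 counts.

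Of the 40 lower members, 16 were also lower at 4 h and 12 at 8 h against the control of that hour, which are other pools. Over all 144 members, 28 were lower at 4 h and 27 at 8 h. At all 3 hours 8 were lower, namely miR-1893, miR-1957a, miR-2137, miR-30b-5p, miR-320-3p, miR-5112, miR-5119 and miR-6240. Of all members, 10 were lower at both 4 h and 8 h. Of the 13 higher members, 4 were higher at 4 h and 6 at 8 h, beside 25 and 16 of all members, and miR-106b-5p, miR-133b-3p and miR-298-5p were higher at both, against 7 of all members. For miR-5112 the log2 differences were -1.95 at 4 h, -1.16 at 8 h and -3.44 at 24 h. For miR-320-3p they were -1.28, -0.88 and -2.28. Both were thus lower in the SE pools of 4 h, 8 h and 24 h than in the control pool of the same hour. SE 2 weeks has no control of its own time. In that pool miR-5112 was at 2157 CPM, above all 3 controls on all counts, and miR-320-3p was at 1272 CPM.

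By tissue annotation in the study's supplement, the 30 members listed for brain had 3 higher and 10 lower, and 2 above and 10 below all controls. Among those 10 below is miR-330-5p, at 0 counts in SE 24 h and control 4 h alike. The median of the 30 was -0.74 beside -0.64 over all members. Members listed for neurons numbered 24, with 5 higher and 9 lower, and those for astrocytes 16, with 1 higher and 3 lower. Microglial entries numbered 14, with none higher and 4 lower, and oligodendrocyte entries 7, with 1 higher and none lower. Over all members the shares were 9.03% higher and 27.8% lower. The study drew these lists from the miRNAs it detected in these libraries. The list of neuronal miRNAs used for this comparison had 26 entries counted in the series, and 9 of them had a count in SE 24 h, beside 8, 9 and 11 in control 4 h, 8 h and 24 h. It was wider than the list written in the plan, which named neither miR-341 nor miR-330. It also held miR-338-3p, which the study's supplement gives as an oligodendrocyte miRNA. Only 4 were tested, of which miR-341-3p was higher and miR-139-5p and miR-330-5p were lower. miR-341-3p is also counted in the Dlk1-Dio3 cluster.

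miRNAs with strong neuronal expression were at the limit of detection. miR-124-3p, which marks neurons, had 0 counts in each control and 49 in SE 24 h, and miR-132-3p, induced by neuronal activity, had 0 in each control and 38 in SE 24 h. Both counts are about the value around which the low counts of SE 24 h gathered. miR-9-5p had 122, 111, 1 and 111 counts in control 4 h, 8 h, 24 h and SE 24 h. miR-29b-3p had 59 counts in control 24 h and 0 in the others. None of these 4 was a member, and at this depth no difference could be read from them. miR-19b-3p, 1 of the miRNAs the study followed by PCR, was at 164, 205 and 223 CPM in the controls and 180 in SE 24 h. It was within the controls on all counts and above all 3 without miR-486b-5p.

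Markers of blood cells and other tissues were measured in the same libraries. The counts of these lists are to be read beside 27.8% lower and 9.72% above all controls over all members. The red blood cell list had 4 members tested, with none called and 2 above all controls. On all counts those 2 were above by little, miR-486b-5p at 760850 CPM against 760600 in control 4 h and miR-144-5p at 244 against 241 in control 8 h. Without miR-486b-5p the gap of miR-144-5p was wider, with 906 counts of 889228 in SE 24 h and 850 of 1147933 in control 8 h. miR-144-3p and miR-16-5p were below control 24 h, with log2 differences of -0.94 and -0.58 on all counts. miR-451a, which marks red blood cells, had 3, 39 and 81 counts in the controls and 45 in SE 24 h. Measured against miR-23a-3p, miR-486b-5p was 2977-fold, 3117-fold and 2333-fold more abundant in the controls and 4747-fold in SE 24 h. The log2 ratio of miR-451a to miR-23a-3p was -7.44, -4.29 and -3.60 in the controls and -3.73 in SE 24 h. miR-23a-3p itself was at 255, 216 and 287 CPM in the controls and 160 in SE 24 h, so its lower SE level enters both ratios. The leukocyte list had 7 tested, with 3 lower, and held 4.48% to 8.51% of counts without miR-486b-5p in the controls and 6.93% in SE 24 h. The platelet list had 7 tested, with 2 lower, and held 0.744% to 1.26% in the controls and 1.14% in SE 24 h. The muscle list held 0.374%, 0.313% and 0.0409% in the controls and 0.0841% in SE 24 h, with miR-133a-5p at 0 there and in control 24 h, and miR-208b-3p at 0 there and in control 4 h. The liver marker miR-122-5p had 0 counts in each control and 1 in SE 24 h. Fewer cells of a type and less RNA from each cannot be told apart in such pools, and the part of blood cells in the differences above was not tested.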

How the data were processed

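Small RNA bound to Ago2 was sequenced from 7 plasma pools. The authors trimmed and size-selected reads, aligned them with BLASTn to mouse miRBase V21 in the Chimera software, with up to 2 mismatches, and deposited raw counts for mature miRNAs, 1 column per pool. The version of Chimera is not given in the sources used here. Every deposited column was mapped to a library.

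From the deposited counts, CPM was computed in Python 3.11.15 (numpy 2.4.6, pandas 2.3.3, scipy 1.17.1, and matplotlib 3.10.9 for figures) with and without miR-486b-5p in the total. Counts of 3 or fewer were set to 3 for log2 differences and for the comparison with all 3 controls. With 1 library a side no test was made for the main calls. Exact tests with the BCV fixed at 0.1 and 0.4 (edgeR 4.0.16 with limma 3.58.1 under R 4.3.3) and DESeq2 1.42.0 size factors were alternatives. Total counts were between 2043220 and 3718313 in the 4 libraries compared, and the floor of 3 counts was between 0.807 and 1.47 CPM.

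The counts given by 1 molecule were read from counts of 6 to 300 on a natural log scale, as the peak of their smoothed density (Gaussian kernel, bandwidth 0.15). The scripts were tested on simulated counts. That simulation failed its check at first and was revised in 2 steps before it passed. In one of the versions that failed, this peak settled on the count of a pair of molecules. Estimated molecules and every count that uses the molecule interval are therefore approximate, and were repeated with the value doubled and halved. In every version, many simulated miRNAs left unchanged still went past 1.5-fold where each molecule gave many counts. The check limited such calls only where each molecule gave 1 count, so passing it does not vouch for the 1.5-fold calls here.

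Named miRNAs are the 5 with most counts in SE 24 h, the 10 largest differences each way among those called with 50 CPM in both libraries (5 such increases existed), those with 3 counts or fewer in 1 library, members of the lists, and those the paper names. The members and lists were chosen with earlier results of these data known. Sequences and loci are from RefSeq and GENCODE for GRCm38, a build not used by the authors' alignment.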

Additional observations from a re-analysis of the deposited data

Results flagged for a closer look

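6 differences of single miRNAs went past 1.5-fold one way at 24 h and the other way at an earlier hour. The difference between hours was not tested, since each hour has 1 library a side. miR-205-5p was higher at 8 h by 1.35 on the log2 scale of all counts and lower at 24 h (-2.70). miR-24-3p was higher at 8 h by 0.94 and lower at 24 h (-1.31), and miR-877-5p was higher at 8 h by 0.89 and lower at 24 h (-3.64). miR-222-3p had 930 counts in SE 4 h and 0 in control 4 h, at least 117-fold higher against a floor of 3 counts in that library, and was lower at 24 h (-2.93). The other two were higher at 24 h. miR-3057-5p differed by -0.78 at 8 h and 0.60 at 24 h, and miR-5126 by -2.88 at 4 h and 1.12 at 24 h.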

How the results depend on the processing

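No paired analysis was possible because every condition has 1 library. No library could be left out for the same reason. The 13 higher and 40 lower miRNAs changed with nearly every choice. With all counts as the only total, 75 were lower. Without miR-486b-5p as the only rule, 28 were higher and 27 above all controls, with the same 28 and 27 when miR-144 and miR-451a also left the total. TMM gave 33 higher and 42 above all controls, and DESeq2 size factors 38 and 42. The lower counts under these were 32 and 30, so the excess of lower over higher calls held on the 2 totals and not under TMM or DESeq2. The filter moved the counts of higher, lower, above and below to 77, 121, 60 and 73 at 10 CPM and to 107, 135, 80 and 78 for any count. At 100 CPM, 6 were higher and 7 above. With 50 CPM in both libraries, 5 were higher, 19 lower and 8 above. With the 144 members kept, other controls gave 7 higher (3 controls summed), 8 (control 8 h) and 45 (control 4 h, where the 164 miRNAs tested in that pair gave 36). A 2-fold rule gave 6 and 26. edgeR's exact test, with unadjusted p under 0.05 and 1.5-fold, gave 33 higher at BCV 0.1, and 6 higher and 14 lower at BCV 0.4. The molecule interval left 2 and 20. With the counts per molecule doubled it left 2 and 10, and with them halved 3 higher, both chosen after seeing the data.

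The median log2 difference of -0.64 became -0.17 without miR-486b-5p (-0.17 without the other red blood cell miRNAs), -0.020 under TMM, -0.40 for any count, -0.50 against the summed controls and -0.49 against control 8 h. It turned positive under DESeq2 size factors (0.038) and against control 4 h over the 144 members (0.0033), but was -0.40 over the 164 miRNAs at 50 CPM in either library of that pair. The directions of several higher miRNAs rest on control 24 h. Against the summed controls, control 8 h and control 4 h, miR-127-3p was at -0.81, -0.49 and -2.20, miR-676-3p at -0.046, -0.27 and -0.57, miR-133a-3p at -2.11, -2.83 and -2.48, and the muscle list median at -0.40, -0.58 and -1.02. miR-107-3p was at -0.36 and -0.27 against control 8 h and 4 h. Against control 4 h, miR-434-3p and the Dlk1-Dio3 median were both at -1.01, and the lower miR-142a-3p was at 0.75.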
